A study of Mus musculus with 6 samples.

Results

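The genes described here are 7 phospholipid flippase genes (Atp8a1, Atp8a2, Atp8b2, Atp8b4, Atp9b, Atp10a and Atp11b), the flippase partner gene Tmem30a and the phospholipid transfer protein gene Pltp, 9 of the 47643 genes in the count table. They were taken by symbol, and all 9 were found once and passed the filter on low counts that left 12760 genes to be tested. RNA came from thymic NKT1 cells of WT (wild-type) BALB/c mice, sorted into a CD4-positive and a CD4-negative group of 3 libraries each. NKT1 cells are the T-bet-expressing subset of invariant natural killer T (iNKT) cells, which see lipids on CD1d through a nearly fixed T cell receptor. No treatment is given for either group, and both share the genotype and tissue. The labels do not say whether the libraries came from separate mice, so the spread between replicates may in part be technical. The set was chosen by symbol with the differences and adjusted p of this same comparison known, in which Atp8a2 and Pltp were past the test over all genes. The differences of the 9 genes between the groups are therefore given as a description and support nothing further.

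The 2 leaflets of a cell membrane hold different lipids. Flippases, the P4 class of P-type ATPases, use ATP to move phospholipids such as phosphatidylserine and phosphatidylethanolamine from the outer to the inner leaflet, and most of them need a CDC50 subunit such as TMEM30A to leave the endoplasmic reticulum. Scramblases let lipids cross in both directions, and phosphatidylserine that reaches the surface marks dying thymocytes for uptake by phagocytes and is also shown for a time by activated T cells. PLTP is a secreted protein of the BPI and LBP family that moves phospholipids between lipoproteins and is best known from plasma.

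What the 7 flippases share in sequence is the site at which the enzyme is phosphorylated by ATP during each transport cycle. The coding sequences of all 7, in the longest coding transcript of GENCODE release M21 (GRCm38), held the P-type ATPase phosphorylation motif once. It was searched in frame on the coding strand as a degenerate 15-base pattern that leaves the last base of each codon free. The pattern was present in 0.273% of 21584 genes with a usable coding sequence (59 genes), and absent in frame from Tmem30a and Pltp. The stretches of 45 bases around it are shown for 6 flippases because they set the paralogs side by side, with the motif in capitals.
Atp8a1: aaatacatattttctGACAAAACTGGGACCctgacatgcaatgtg
Atp8a2: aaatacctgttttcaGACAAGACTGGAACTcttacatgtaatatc
Atp8b2: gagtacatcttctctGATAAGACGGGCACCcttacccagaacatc
Atp8b4: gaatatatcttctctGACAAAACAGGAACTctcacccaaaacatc
Atp10a: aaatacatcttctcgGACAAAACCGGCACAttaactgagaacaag
Atp11b: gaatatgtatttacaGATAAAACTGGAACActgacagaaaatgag
The stretch lies at chr5:67761155-67761199 in Atp8a1, chr14:60023490-60023534 in Atp8a2, chr3:89949849-89949893 in Atp8b2 and chr2:126397628-126397672 in Atp8b4, all on the minus strand. It lies at chr7:58788347-58788391 in Atp10a and chr3:35809360-35809404 in Atp11b, on the plus strand, and each stretch is coding sequence within 1 exon. Atp8a2 shared 35 of the 45 bases with Atp8a1 and 28 to 31 with the other 4 genes, and Atp8b2 shared 36 with Atp8b4. The paralogs thus differ at many bases even here, where the encoded site is conserved.

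Library totals were 40480463 to 53145848 estimated counts, so that 1 count was worth 0.0188 to 0.0247 CPM (counts relative to the library total). CD4-negative replicate 3 stood apart, with 13787 genes detected (15293 to 16267 elsewhere) and a score of -51.0 on the first principal component (51.9% of the variance) against -16.6 to 23.8. Its mitochondrial share was 1.33%, and that of CD4-positive replicate 1 was 1.35%; the remaining 4 lay at 3.51% to 5.19%. Cd4, the sort marker, was at 401 to 508 CPM in the CD4-positive and 10.9 to 41.2 CPM in the CD4-negative libraries. All 10 marker genes listed for iNKT and NKT1 cells were expressed in both groups, with T-bet (Tbx21) at 297 to 639 CPM. None of the 10 passed edgeR's test, but 3 had groups that did not overlap, as had 9.41% of all tested genes. All 3 were higher in CD4-positive cells: Zbtb16 (70.1 to 151 and 60.0 to 63.6 CPM), Cd5 (232 to 243 and 141 to 172 CPM) and Trac (721 to 797 and 679 to 720 CPM).

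Of the 9 genes, Atp8a2 had the largest difference towards CD4-positive cells and Pltp the largest towards CD4-negative cells. The other 7 genes had smaller differences, of -0.33 to 0.48 on the log2 scale (CD4-positive minus CD4-negative). Levels are given as CPM scaled by the trimmed mean of M values (TMM), and differences come from edgeR's quasi-likelihood fit over all 12760 genes. By that fit 2 of the 9 genes had an adjusted p under 0.05, 1 in each direction, beside 0.212% of all tested genes (27). The share was 0.0705% for higher genes (9) and 0.141% for lower genes (18). These percentages only place the count, since these calls were known when the genes were chosen. The median difference was -0.10 over the 9 genes and -0.01 over all tested genes.

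**Figure D1:**
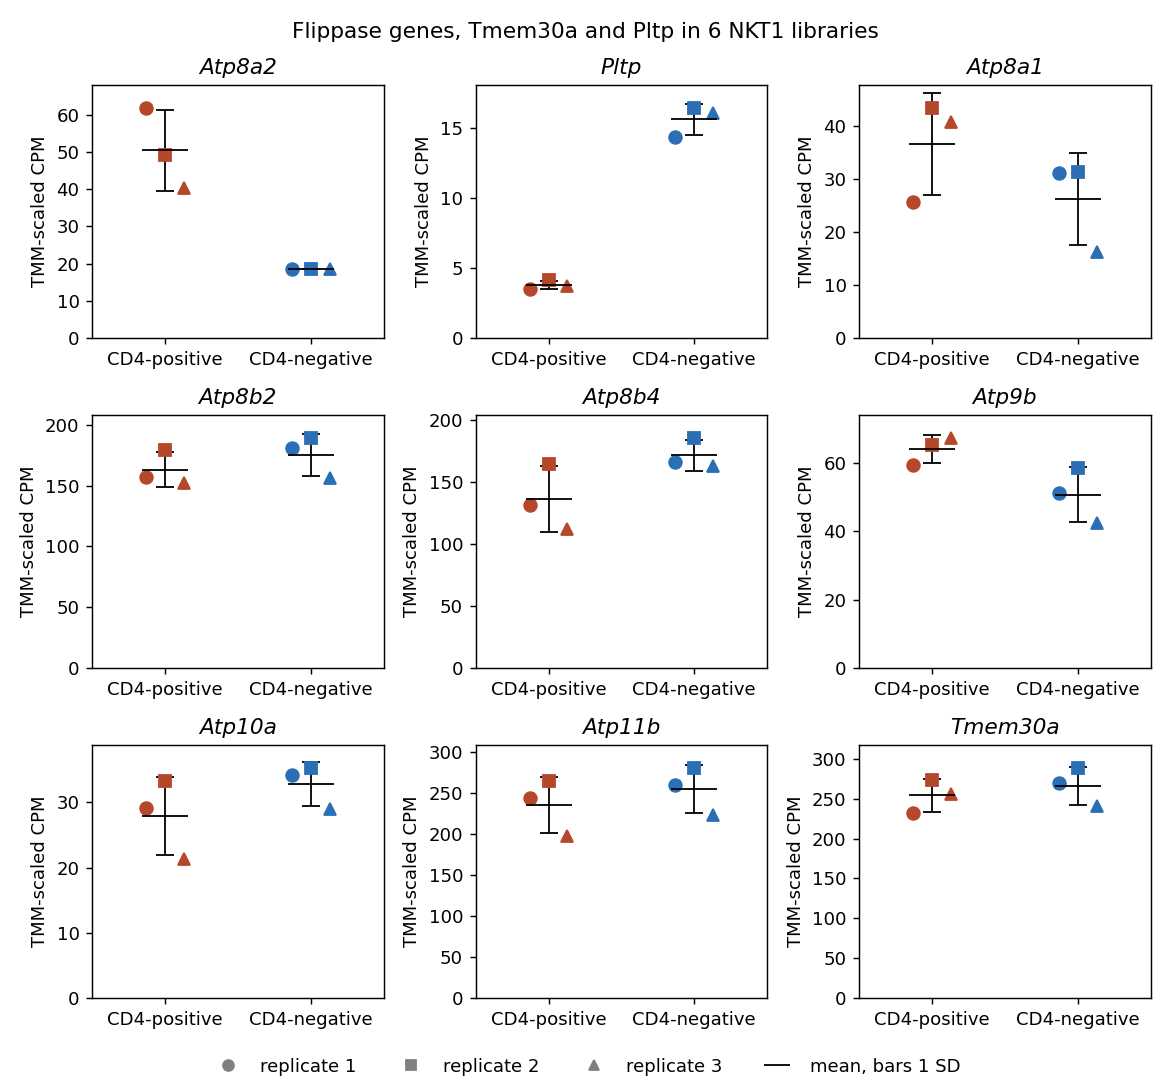
TMM-scaled CPM of the 9 genes in each of the 6 libraries, with symbols for replicates, a horizontal line at the group mean and bars of 1 SD (n = 3). Atp8a2 and Pltp separate clearly, Atp9b is separated by a small gap, and the groups overlap for the other 6 genes.

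ATP8A2 is a phosphatidylserine and phosphatidylethanolamine flippase known mainly from neurons, photoreceptors and testis. Atp8a2 (ENSMUSG00000021983, chromosome 14, 59638540 to 60197179, minus strand, GRCm38) was at 61.8, 49.1 and 40.2 CPM in CD4-positive replicates 1, 2 and 3. In the CD4-negative libraries it was at 18.4, 18.6 and 18.6 CPM. The lowest CD4-positive library thus stood well above all CD4-negative libraries, and the spread lay almost wholly among the CD4-positive libraries. The group means were 50.4 ± 10.8 and 18.5 ± 0.0902 CPM (SD, n = 3), a 2.72-fold difference or 1.44 on the log2 scale (SE 0.19). Its adjusted p in edgeR's quasi-likelihood test was 0.0486, the last of the 27 genes under the threshold. It rose above 0.05 when any 1 of the 6 libraries was left out, with values of 0.0579 to 0.299 and log2 differences of 1.27 to 1.59.

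These levels rested on 2088 to 3004 counts in the CD4-positive and 712 to 1003 counts in the CD4-negative libraries, all whole numbers. The library names of both replicate 3 samples follow a scheme of their own (R4), which the labels do not explain. In the libraries of the numbered scheme alone Atp8a2 differed by 1.59 (edgeR adjusted p = 0.134), and with the scheme as a term in the model by 1.43 (adjusted p = 0.0634). Without the 2 libraries of low mitochondrial share it differed by 1.28 (adjusted p = 0.0281). In GENCODE M21 the largest exon overlap of Atp8a2 is with the processed pseudogene Gm19716 on the opposite strand. It covers 2073 of the 15410 exon bases of Atp8a2, and the level of Gm19716 is not given here. The exons of Atp8a2 also share 241 bases with Nupl1, a nuclear pore protein gene on the same strand, or 1.56% of the Atp8a2 exon length. Nupl1 was at 53.2 ± 4.23 and 42.4 ± 6.82 CPM, a log2 difference of 0.33 (SE 0.17).

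PLTP moves phospholipids between lipoprotein particles. Pltp (ENSMUSG00000017754, chromosome 2, 164839518 to 164857711, minus strand) was at 3.54, 4.12 and 3.70 CPM in CD4-positive replicates 1, 2 and 3. It was at 14.4, 16.5 and 16.1 CPM in CD4-negative replicates 1, 2 and 3. The lowest CD4-negative library was more than 10 CPM above the highest CD4-positive one, and CD4-negative replicate 3, which stood apart over all genes, lay between the other libraries of its group. The means were 3.79 ± 0.304 and 15.7 ± 1.13 CPM (SD, n = 3), a level 4.13-fold higher in CD4-negative cells. The log2 difference was -2.05 (SE 0.18, adjusted p = 0.0201 in edgeR's quasi-likelihood test, rank 3 by p over all genes). Leaving out CD4-negative replicate 3 gave an adjusted p of 0.0149, and leaving out any other library 0.0641 to 0.180, with log2 differences of -2.11 to -2.00 over all 6. In the numbered libraries alone it differed by -2.00 (adjusted p = 0.0962), and with the naming scheme in the model by -2.05 (adjusted p = 0.0293).

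Pltp was the only one of the 9 genes with fractional estimated counts, and it had them in all 6 libraries: 171.5, 214.34 and 192.11 in the CD4-positive and 667.55, 889.81 and 617.93 in the CD4-negative libraries. Fractions arise where reads are shared between genes. Pltp shares 495 exon bases, 19.3% of its exon length, with Ctsa on the opposite strand, the gene of the lysosomal enzyme cathepsin A. Ctsa had 13800 to 18228 counts, also fractional in all 6 libraries, and the sum of the pair was not whole (within 0.01) in any library. Ctsa was at 314 ± 37.9 CPM in the CD4-positive group and 340 ± 63.6 CPM in the other, a log2 difference of -0.12 (SE 0.19). Pltp made up 1.04% to 1.48% of the summed counts of the pair in CD4-positive and 3.75% to 5.03% in CD4-negative libraries. Which reads were shared cannot be read from the table, and the level of Pltp is uncertain to that extent.

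**Figure D2:**
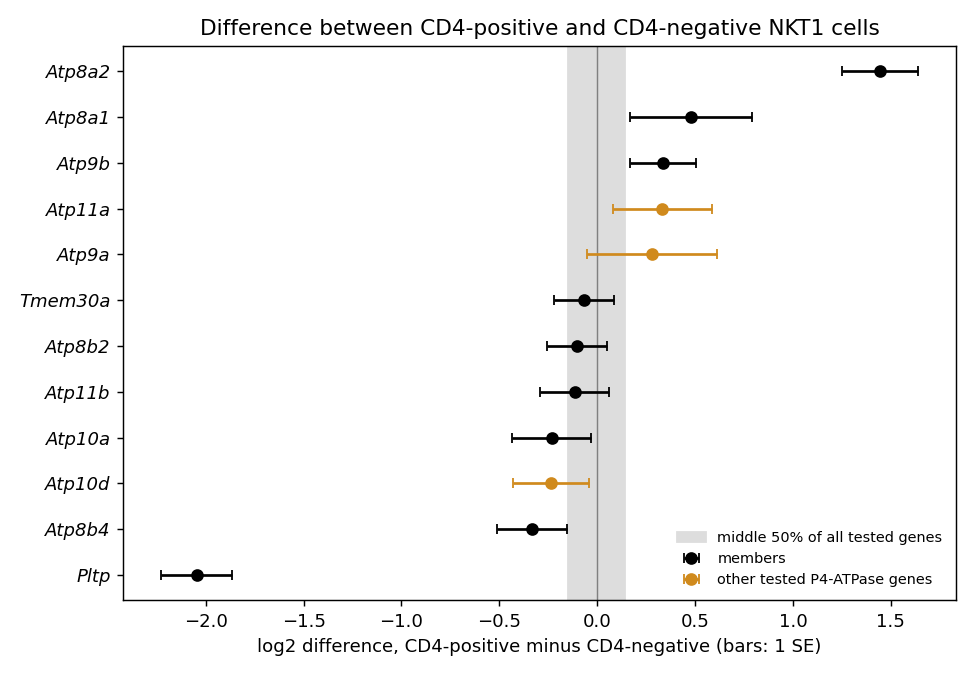
Log2 differences (CD4-positive minus CD4-negative, bars 1 SE, n = 3 per group) of the 9 genes in black and of 3 further tested P4-ATPase genes in orange, with the middle 50% of all tested genes in grey. Atp8a2 (1.44) and Pltp (-2.05) lie far outside that band, and the others lie between -0.33 and 0.48.

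Atp8a1 encodes the closest relative of ATP8A2 and likewise moves phosphatidylserine. It was at 25.6, 43.4 and 40.7 CPM in CD4-positive replicates 1, 2 and 3 and at 31.1, 31.2 and 16.3 CPM in the CD4-negative ones. The groups overlapped, and the lowest value of each group came from its library of low mitochondrial share. The log2 difference was 0.48 (SE 0.31), and its spread within groups was larger than that of 86.2% of tested genes. Without those 2 libraries it differed by 0.43 (edgeR adjusted p = 0.265). Per library the ratio of Atp8a2 to Atp8a1 per kilobase was 2.24, 1.05 and 0.917 in the CD4-positive and 0.548, 0.550 and 1.06 in the CD4-negative libraries, which overlapped.

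ATP9B is a flippase of the trans-Golgi network that leaves the endoplasmic reticulum without a CDC50 subunit. Atp9b was at 59.6, 65.3 and 67.4 CPM in the CD4-positive and at 51.3, 58.6 and 42.6 CPM in the CD4-negative libraries. The groups did not overlap, but the gap between them was about 1 CPM, and 9.41% of all tested genes had groups that did not overlap. The log2 difference was 0.33 (SE 0.17) and had an unadjusted p of 0.0833 in edgeR's test, the smallest among the 7 genes other than Atp8a2 and Pltp. In all, 3 of the 9 genes had groups that did not overlap.

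Atp8b2 and Atp8b4 belong to the ATP8B branch, and neither passed the test. ATP8B2 is known as a phosphatidylcholine flippase of the plasma membrane. Atp8b4 was at 131, 164 and 112 CPM in the CD4-positive and at 166, 185 and 163 CPM in the CD4-negative libraries, a log2 difference of -0.33 (SE 0.18). CD4-positive replicate 2 reached the CD4-negative range. Atp8b2 was at 158, 180 and 152 CPM against 181, 189 and 156 CPM, a log2 difference of -0.10 (SE 0.15), with overlapping groups.

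ATP10A flips phosphatidylcholine at the plasma membrane, and ATP11B is a flippase of endosomes and the Golgi. Atp10a was at 29.1, 33.2 and 21.4 CPM in the CD4-positive and at 34.1, 35.3 and 28.9 CPM in the CD4-negative libraries (log2 -0.23, SE 0.20). Atp11b was at 244, 264 and 198 CPM against 260, 280 and 223 CPM (log2 -0.11, SE 0.18). Both had their lowest value of each group in replicate 3, and their groups overlapped. Without CD4-positive replicate 3 the difference of Atp11b was 0.00011, so its sign rested on that library.

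Tmem30a, the shared subunit, had similar levels in both groups. It was at 232, 274 and 257 CPM in the CD4-positive and at 269, 289 and 241 CPM in the CD4-negative libraries. The ranges overlapped over most of their width, and the log2 difference was -0.07 (SE 0.15). Its spread within groups was smaller than that of most genes (12.0% of tested genes had a smaller one).

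To compare genes with each other, levels were divided by the length of all annotated exons of the gene in kilobases. Tmem30a led with 46.1 ± 3.74 CPM per kilobase (SD over 6 libraries), followed by Atp11b (26.7 ± 3.29), Atp8b4 (23.1 ± 4.01) and Atp8b2 (19.8 ± 1.84). A clear step separated these from Atp10a (5.43 ± 0.917) and Atp9b (4.83 ± 0.775), and Atp8a1 stood at 2.20 ± 0.695, rank 8 in both groups. Tmem30a was above Atp11b and Atp8b2 was above Atp10a in 6 of 6 libraries with no overlap of their ranges. The other neighbours in the order overlapped. The order of the lower genes differed between the groups. Pltp ranked 9 in CD4-positive cells (1.48 ± 0.118) and 5 in CD4-negative cells (6.11 ± 0.439), while Atp8a2 ranked 7 (3.27 ± 0.702) and 9 (1.20 ± 0.00585). Atp9b was above Atp10a in CD4-positive cells (5.39 ± 0.340 and 4.99 ± 1.08, with overlapping ranges) and below it in CD4-negative cells (4.27 ± 0.673 and 5.87 ± 0.604).

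**Figure D3:**
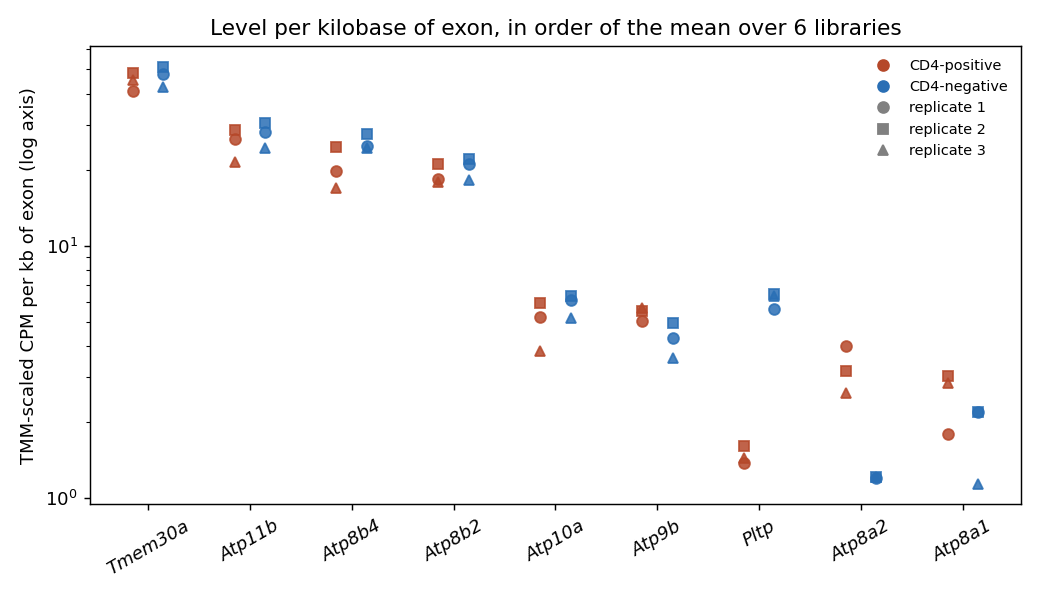
TMM-scaled CPM per kilobase of exon on a log axis for the 9 genes, ordered by the mean over 6 libraries, with CD4-positive libraries in red and CD4-negative libraries in blue and a symbol for each replicate. Tmem30a lies above 41 in all libraries, Pltp splits into 2 separate groups of 3 libraries, and the 3 CD4-negative values of Atp8a2 nearly coincide.

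The order of the genes depends in part on the length used. With the longest transcript in place of all exons, Atp9b stood at 10.7 and Atp8b2 at 29.7 CPM per kilobase, and each then ranked above the gene before it (Atp10a and Atp8b4). Atp8a1, at 3.84, then ranked above Atp8a2. The gene models are those of GENCODE M21, which may differ from those the authors counted with: 6 of the 9 genes carry the same identifier version in both.

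Over the summed level per kilobase of the 7 flippase genes, Atp11b, Atp8b4 and Atp8b2 made up most of the total in all 6 libraries. Atp11b held 31.5% ± 1.34 in CD4-positive and 31.8% ± 0.552 in CD4-negative cells (SD, n = 3). Atp8a2 held 4.97%, 3.46% and 3.67% in the CD4-positive and 1.36%, 1.27% and 1.54% in the CD4-negative libraries. The share of Atp8a2 was thus higher in all CD4-positive libraries but remained a small part of the sum. The sum itself was 81.3 ± 10.5 and 87.1 ± 8.58 CPM per kilobase, with overlapping groups. Tmem30a stood at 0.510 to 0.639 of it in CD4-positive and 0.538 to 0.547 in CD4-negative libraries.

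**Figure D4:**
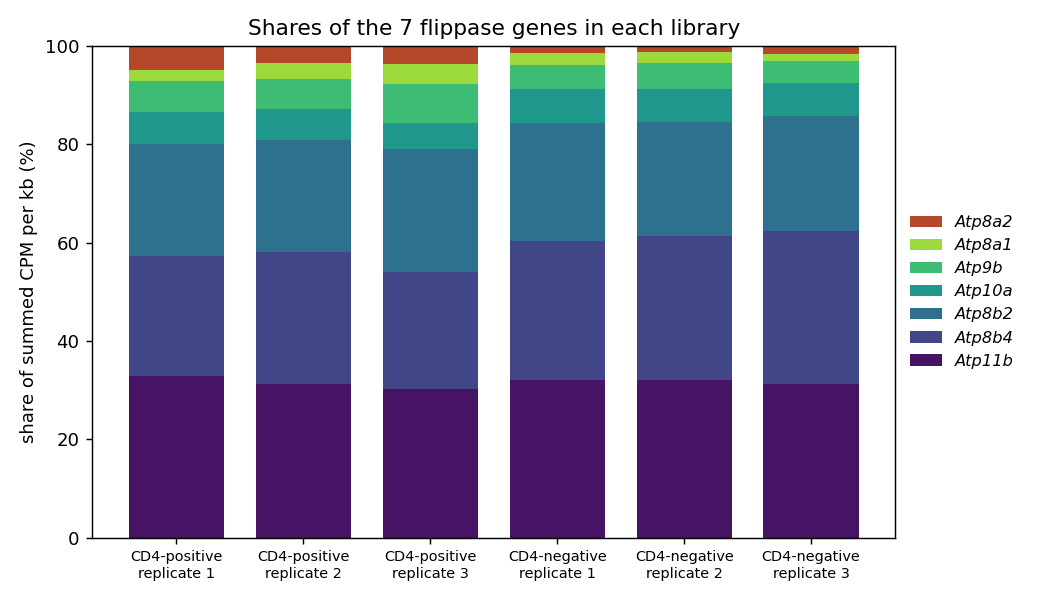
Share of each of the 7 flippase genes in their summed CPM per kilobase of exon (%), with 1 bar per library. Atp8a2, at the top in red, takes 3.46% to 4.97% in the CD4-positive and 1.27% to 1.54% in the CD4-negative libraries, while Atp11b, at the bottom, takes 30.3% to 32.9% throughout.

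Of the other 10 genes for P4-ATPases and CDC50 subunits, 4 were expressed well enough to be tested. None of the 4 passed edgeR's quasi-likelihood test, 0 had an unadjusted p under 0.05 (4.44% of all tested genes did), and 0 passed in DESeq2 or limma-voom. Atp9a, a Golgi and endosome flippase, was highest per kilobase (11.6 ± 3.89) and stood at 75.2 ± 22.2 and 62.0 ± 26.5 CPM. Atp10d was at 55.6 ± 9.43 and 65.5 ± 11.0 CPM, and Atp11a at 19.6 ± 1.78 and 15.5 ± 4.78 CPM. Tmem30b and Tmem30c, the other CDC50 genes, reached at most 1.07 and 0.0215 CPM, so Tmem30a was the only one of the 3 at a level that could be tested.

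Scramblases, which act against the flippases, showed no called member: of 14 listed genes 11 were tested, and 0 passed in edgeR, DESeq2 or limma-voom or had an unadjusted p under 0.05 in edgeR. The median difference was -0.05. Ano6, the calcium-activated scramblase of the plasma membrane, was at 78.7 to 117 CPM in all libraries, and Xkr8, the scramblase cleaved in apoptosis, at 3.89 to 8.96 CPM. These 2 were named after their values were seen. Bsg and Nptn, partner subunits of XKR8, were highest per kilobase (94.5 ± 22.7 and 21.7 ± 4.05). Nptn and Tmem63b had the smallest p, with log2 differences of -0.33 (SE 0.19) and -0.31 (SE 0.25).

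Among 13 genes of phospholipid synthesis 12 were tested and 0 passed edgeR's test. Groups did not overlap for 3 of the 12, all lower in CD4-positive cells, beside 9.41% of all tested genes. An unadjusted p under 0.05 in edgeR was reached by 1 gene, beside 4.44% of all tested genes. That gene was Chpt1, which makes phosphatidylcholine from CDP-choline. It was at 5.94, 6.07 and 6.51 CPM in the CD4-positive and at 11.7, 11.6 and 11.3 CPM in the CD4-negative libraries. The groups stood clearly apart, with a log2 difference of -0.90 (SE 0.17, adjusted p = 0.128 in edgeR and 0.00870 in DESeq2). The phosphatidylserine synthase Ptdss1 was at 64.9 ± 2.48 and 61.2 ± 2.59 CPM, and Cept1, a choline and ethanolamine phosphotransferase, at 61.1 ± 5.75 and 53.6 ± 2.27 CPM. Choline kinase alpha (Chka) was at 10.1 ± 0.929 and 12.2 ± 0.980 CPM.

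Of the genes for phospholipid transfer inside cells all 17 were tested. None passed edgeR's test. Groups did not overlap for 3 of the 17, 1 higher and 2 lower in CD4-positive cells, beside 9.41% of all tested genes. An unadjusted p under 0.05 in edgeR was reached by 1, Stard10, beside 4.44% of all tested genes. STARD10 binds phosphatidylcholine and phosphatidylethanolamine. Stard10 was at 17.2, 12.6 and 10.7 CPM in the CD4-positive and at 27.4, 27.0 and 43.0 CPM in the CD4-negative libraries, the last in the library that stood apart. The groups did not overlap, with a log2 difference of -1.26 (SE 0.27, adjusted p = 0.201 in edgeR and 0.00312 in DESeq2). Without the 2 libraries of low mitochondrial share its difference was -1.22 (edgeR adjusted p = 0.0295). The phosphatidylinositol transfer proteins Pitpna and Pitpnm1 were highest per kilobase (81.7 ± 13.4 and 23.3 ± 1.29), with log2 differences of -0.08 and 0.06. The bridge protein gene Vps13c was at 74.7 ± 1.01 and 61.1 ± 4.12 CPM.

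Of 12 genes of the BPI and LBP family and of lipoprotein metabolism, 6 had no count in any library and 2, Apoe and Mttp, could be tested. Neither passed in edgeR, DESeq2 or limma-voom, and 0 had an unadjusted p under 0.05 in edgeR. Apoe, the lipoprotein component apolipoprotein E, was at 2.40 ± 1.14 and 2.84 ± 0.465 CPM. Lbp, the close relative of Pltp, was at 0 to 0.289 CPM, and Bpi had no count. The mean of Pltp was above those of all 12 genes in CD4-positive cells (3.79 CPM) as well as in CD4-negative cells (15.7 CPM). In CD4-positive replicate 1, however, Apoe (3.68 CPM) was above Pltp (3.54 CPM).

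Markers of other cells were summed beside Pltp and Atp8a2, since a sort can hold other cells and since in bulk RNA more cells of a type and more RNA per cell cannot be told apart. Markers of macrophages, which are known for Pltp, summed to 1.91 to 2.30 CPM in the CD4-positive and 2.45 to 3.03 CPM in the CD4-negative libraries over 12 genes. The sum was thus higher in every CD4-negative library, as Pltp was, but the 2 ranges were only narrowly apart (2.30 and 2.45 CPM). Cd68 was at 0.462 ± 0.223 and 0.810 ± 0.279 CPM and C1qb at 0.0989 ± 0.0707 and 0.234 ± 0.112 CPM in the CD4-positive and CD4-negative groups, with overlapping libraries. C1qa was at 0.429 ± 0.134 and 0.445 ± 0.0766 CPM, and C1qc at 0.395 ± 0.0827 and 0.394 ± 0.229 CPM. Lyz2 was at 0.493 ± 0.0981 and 0.564 ± 0.334 CPM. Spi1 was higher in CD4-positive cells (0.0724 ± 0.0680 and 0.0185 ± 0.0320 CPM), with overlapping libraries. Mertk and Marco had no count in any library, and Adgre1 had none in the CD4-negative ones. Markers of stroma and endothelium summed to 2.82 to 3.10 and 3.05 to 4.24 CPM over 12 genes, with Kdr at 0.

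The other marker lists had no called member in edgeR. B cell markers summed to 55.0 to 77.8 CPM in the CD4-positive and 109 to 119 CPM in the CD4-negative libraries over 8 genes, nearly all from Ighm, with Pax5 at 0. Of the 3 tested genes of that list 2 did not overlap, Ighm and Cd22 (3.37 to 3.74 and 4.47 to 5.14 CPM). Dendritic cell markers summed to 8.98 to 14.7 and 12.2 to 29.0 CPM over 10 genes, in part from Xcr1 (4.65 to 7.24 and 8.36 to 16.5 CPM), with Flt3 at 0 in 4 libraries. Itgax of the same list was at 0 to 0.0771 CPM in the CD4-positive and 0.430 to 0.965 CPM in the CD4-negative libraries, without overlap (adjusted p = 0.455 in edgeR). H2-Aa, also of that list, went the other way without overlap, at 0.424 to 0.906 and 0.344 to 0.389 CPM. Of the 7 tested genes of that list 3 thus did not overlap, beside 9.41% of all tested genes. These were Xcr1 and Itgax, lower in CD4-positive cells, and H2-Aa. Immature thymocyte markers summed to 28.6 to 148 and 45.3 to 216 CPM over 8 genes. Haemoglobin dominated the erythroid and platelet list (202 to 252 and 195 to 472 CPM over 8 genes), in which Pf4, Gp9 and Ppbp were at 0. The part of these cells in the differences of Pltp and Atp8a2 was not tested. No list was made for the other iNKT subsets, so their presence in either group was not looked at here.

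The genes whose pattern over the 6 libraries was most like that of Atp8a2 were Icos, a costimulatory receptor (Pearson r of log2 CPM 0.995), Mthfd2, a mitochondrial folate enzyme (0.992), and the transcription factor Maf (0.987). For Pltp they were the nucleotide hydrolase Samhd1 (0.996), the semaphorin receptor Nrp2 (0.994) and Swap70, a regulator of the actin cytoskeleton (0.994). They were sought among 8727 genes averaging 5 CPM or more, after Cd4, pseudogenes, predicted genes and receptor segments had been left out. The values carry mainly the gap between the groups, which all these genes show: Icos was at 192 to 229 CPM in the CD4-positive and 126 to 132 CPM in the CD4-negative libraries, and Nrp2 at 4.38 to 5.57 and 15.1 to 15.5 CPM. Of the 6 genes Nrp2 alone passed edgeR's test (log2 -1.59, adjusted p = 0.0298).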

How the data were processed

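The authors deposited 1 table of estimated counts per gene, not normalised. STAR, Picard, RSEM and the build mm10 are named in the submitters' processing notes, without roles or versions; which annotation and strand setting were used is not given in the sources used here. Per the labels' protocols, RNeasy Plus Micro RNA went into TruSeq Stranded mRNA libraries that were read in paired ends. Columns were matched to samples by library name. Counts were rounded, filtered with filterByExpr and tested in edgeR 4.0.16 (R 4.3.3; TMM, robust quasi-likelihood F test, 2-sided, Benjamini-Hochberg over all genes at 0.05); SEs were derived from F. Group was the sole term. Alternatives used other scalings, filters, limma 3.58.1, DESeq2 1.42.0, a replicate block, the naming scheme and libraries left out; 2 were added after seeing the data (numbered libraries only; both low-mitochondrial libraries left out).

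Library names match between the groups by number or by the R4 scheme, but the labels do not say whether matching libraries are pairs. Same-numbered libraries deviated from their group means with correlations of -0.21, 0.66 and 0.00 (replicates 1, 2 and 3). CD4-positive replicate 1 and CD4-negative replicate 3, both of low mitochondrial share, had 0.46. With so few libraries these correlations cannot decide pairing. The main fit took no pairs, and the fit with a replicate block is given below. Replicates differed by 55.6 to 400.5 in chi-square per degree of freedom, and none was treated as a duplicate. With 0 counts the level can still be up to 0.0564 to 0.0741 CPM (3 counts; counting error only). Counts were simulated with the same dispersion for every gene and no library standing apart, unlike the real data. In them 200 of 12620 genes were changed, each averaging 5 CPM or more. There edgeR found 13% of 2-fold and 96% of 4-fold changes (4 of its 113 calls were false). The figures were 12% and 96% for limma-voom (4 of 112) and 23% and 99% for DESeq2 (27 of 149).

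Gene models and coding sequences come from GENCODE M21 (GRCm38, as mm10); ignoring the version, 47224 of 47643 identifiers matched. Genes were named by a rule: the 9 genes, and the 3 genes most correlated with Atp8a2 and with Pltp. Of each list other than the cell markers, the rule took the called members, or else the 2 with the smallest p and the 2 highest per kilobase. The cell markers were named outside this rule. The 9 genes and the lists were chosen with earlier results of these data known. Some genes of the lists are not reported here by name.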

Additional observations from a re-analysis of the deposited data

How the results depend on the processing

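Over all genes edgeR called 27. DESeq2 was run without the filter on low counts, on 19410 genes in place of 12760, and called 162. Without that filter edgeR called 67. The naming scheme as a batch term gave 11, the numbered libraries alone 9 and the fit without both low-mitochondrial libraries 66. Leaving out 1 library gave 0 to 44, with 0 for every library but CD4-negative replicate 3 (439 to 585 genes at an unadjusted p under 0.05). With the replicate block 0 genes passed (531 at an unadjusted p under 0.05). Under the block Atp8a2 differed by 1.42 (adjusted p = 0.197) and Pltp by -2.05 (adjusted p = 0.0981). Atp8a2 also lost its call with the naming scheme as batch (1.43) and in the numbered libraries (1.59), as did Pltp in the latter (-2.00). With 1 library left out Atp8a2 ranged from 1.27 to 1.59 and Pltp from -2.11 to -2.00. Both kept direction and call under RLE and upper-quartile scaling, DESeq2, limma-voom, both other filters and without the low-mitochondrial pair. Atp11b ranged from -0.20 to 0.00011, its sign turning without CD4-positive replicate 3. The synthesis list had 1 call in DESeq2 (Chpt1), and the intracellular transfer list 1 in DESeq2 and 1 without the low-mitochondrial pair (Stard10 in both); the causes were not tested. Per kilobase of the longest transcript, which is shorter than the exon union, Atp8a1 was at 3.84, Atp8b2 at 29.7, Atp9b at 10.7, Atp11b at 38.7 and Tmem30a at 71.2 CPM. With 3 libraries per group, 2-fold changes were mostly missed in simulated data (13% recovered by edgeR). The simulation gave every gene the same dispersion, so recovery in the real data can differ from gene to gene.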

Other observations

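The 3 CD4-negative values of Atp8a2 had a coefficient of variation of 0.487%, below the 3.16% to 3.75% that counting error alone gives at 712 to 1003 counts. The CD4-positive values varied by 21.5%, against 1.82% to 2.19% from counting error. For Pltp the coefficients were 8.02% and 7.19% in the 2 groups, against 6.83% to 7.64% and 3.35% to 4.02% from counting error. All these coefficients are of TMM-scaled CPM. The scaling factor was 0.947 for CD4-negative replicate 3, against 1.01 and 1.02 for CD4-negative replicates 1 and 2. The narrow spread of Atp8a2 in CD4-negative libraries thus depends on the scaling and is not read as a property of the gene.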
